A study of Mus musculus with 242 samples.

Results

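The genes described here are 35 mouse genes of fatty acid oxidation that include well-known targets of the nuclear receptor PPARalpha. They were followed in the livers of female B6C3F1 mice, in which 26 chemicals were each given for 13 weeks. Each gene was read from its brightest probe set, by the mean of the 242 arrays, and each of the 46 treated groups was set against control arrays of its own run and vehicle. The labels do not pair treated groups with control sets, so where a run held several sets of a vehicle the pairing was inferred from the animal numbers. Of the 35 genes, 33 had a probe set annotated to them alone, out of 18193 genes measured in this way. The only probe set of Cyp4a10 was annotated to both Cyp4a10 and Cyp4a31, so its values are given apart, and Acsl1 was not analysed here. They were chosen as members of a pathway, with earlier results of these data known.

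PPARalpha is a receptor of hepatocytes that is switched on by fatty acids and by fibrate drugs, and it binds DNA as a pair with a retinoid X receptor. Its targets carry fatty acids into the cell, pass them through the carnitine shuttle into mitochondria, shorten them in mitochondria and peroxisomes, hydroxylate them at their omega end, and turn the products into ketone bodies. In rodent liver the receptor is known for the response to fasting and for the multiplication of peroxisomes under fibrates and related chemicals, in which genes of the Cyp4a family and of peroxisomal oxidation rise steeply.

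Each array held the liver RNA of 1 mouse, aged 18 weeks at the end of exposure. The labels describe pieces of several lobes that were minced together, kept in an RNA preservative and extracted with Trizol and silica columns. The 242 arrays fell into 46 treated groups and 14 control sets with 59 control arrays, with 3 to 5 mice in each. By the array codes in their labels they belonged to 4 runs, here called A (54 arrays), B (36 arrays), C (18 arrays) and D (134 arrays), each of which held its own control sets.

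Corn oil gavage was the route of 1,2-Dibromoethane (62 mg/kg), Benzene (100 mg/kg) and Coumarin (200 mg/kg) in run A, of Iodoform (93 mg/kg) and Trichlorofluoromethane (3925 mg/kg) in run B, and of 2,3-Benzofuran (240 mg/kg) in run C. In run D it was the route of 1,4-Dichlorobenzene (100, 300, 400, 500 and 600 mg/kg) and 1,2,3-Trichloropropane (2, 6, 20, 40 and 60 mg/kg). N-Methylolacrylamide (50 mg/kg) and 2-Chloromethylpyridine hydrochloride (250 mg/kg) were given by gavage in distilled water in run A. The diet of rodent chow carried 2,2-Bis(bromomethyl)-1,3-propanediol (1250 ppm), 4-Nitroanthranilic acid (10000 ppm), Diazinon (200 ppm) and Malathion (14800 ppm) in run A, and 1-Amino-2,4-dibromoanthraquinone (20000 ppm) and Tris(2,3-dibromopropyl)phosphate (1000 ppm) in run B. In run C it carried 1,5-Naphthalenediamine (2000 ppm), N-(1-naphthyl)ethylenediamine dihydrochloride (2000 ppm) and Pentachloronitrobenzene (8187 ppm). Tetrafluoroethylene (1250 ppm) and a compound spelled Tetrafluororethane in the labels (50000 ppm) were inhaled in air in run B. Inhaled in run D were Methylene Chloride (100, 500, 2000, 3000 and 4000 ppm), Ethylene Oxide (100 ppm), Propylene glycol mono-t-butyl ether (25, 75, 300, 800 and 1200 ppm), Vanadium Pentoxide (2 mg/m3) and Naphthalene (0.5, 3, 10, 20 and 30 ppm). The controls were mice given corn oil, water, chow or air alone, and the control sets of runs A, B and D are named below by the codes in their labels. The titles of the malathion and benzofuran arrays give another number than their dose labels, and the dose labels are used here.

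The 6 hepatocyte genes Alb, Ttr, Apoa1, Apob, Fgb and Cps1 were at or above the 93.4th percentile of all genes on every array. The stated RNA integrity numbers ran from 4.7 to 7.8 in run A and from 7.1 to 9.4 in the other runs. In the air control set of run B (ACO1, 4 mice), replicate 4 stood apart from the other 3: its log2 signal of Etfdh was 12.98 against 11.03, 10.48 and 10.52. Comparisons with that set are therefore given with and without that array. It was picked out after seeing the data, so results without it are no independent test. Cyp1a1 separated the 4 mice of 1-Amino-2,4-dibromoanthraquinone and the 4 of Tris(2,3-dibromopropyl)phosphate into pairs, with log2 signals of 7.60, 8.07, 14.5 and 14.6 in the former and 14.33, 14.77, 9.77 and 7.91 in the latter, and no called member rests on those arrays. Arrays of these groups may therefore be exchanged, which was not settled. The labels were kept, so values given for either chemical are those of the libraries labelled with it. In liver pieces, fewer cells of a type and less RNA per cell cannot be told apart.

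PPARalpha binds direct repeats of the motif AGGTCA that are spaced by 1 base. RefSeq promoter windows of build GRCm38.p6, from 250 bases before to 50 bases after the start, were found for 26 members in 30 windows. The full repeat (AGGTCA, any 1 base, AGGTCA), searched on both strands, lay in 13 of 32851 windows (0.0396%) and in none of the 30. The looser repeat (AGGNCA, any 1 base, AGGNCA), whose matches include those of the full one, lay in 125 windows (0.381%), of which 1 was that of Fabp1, the liver fatty acid binding protein. With up to 2 mismatches to the full repeat, 1268 windows (3.86%) had a match, of which 3 were those of the members Fabp1, Acot4 and Slc25a20. The windows below are those of Fabp1 (chr6:71199629-71199928, plus strand) and Acot4 (chr12:84038129-84038428, plus strand), which hold close matches. Those of Pdk4 (chr6:5496229-5496528, minus strand) and Acot1 (chr12:84009252-84009551, plus strand), each called lower in 3 treated groups, are also given. Capitals mark the stretch nearest to the repeat on either strand where it had at most 2 mismatches, with 1 in Fabp1 and 2 in Acot4. The nearest stretch of Pdk4 and of Acot1 had 4 and is left in lower case.
Fabp1: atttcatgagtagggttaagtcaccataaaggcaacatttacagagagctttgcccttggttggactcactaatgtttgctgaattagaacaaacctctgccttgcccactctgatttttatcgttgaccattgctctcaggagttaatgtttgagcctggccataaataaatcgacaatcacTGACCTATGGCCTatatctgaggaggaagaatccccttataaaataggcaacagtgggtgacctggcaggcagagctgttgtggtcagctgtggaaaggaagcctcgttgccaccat
Acot4: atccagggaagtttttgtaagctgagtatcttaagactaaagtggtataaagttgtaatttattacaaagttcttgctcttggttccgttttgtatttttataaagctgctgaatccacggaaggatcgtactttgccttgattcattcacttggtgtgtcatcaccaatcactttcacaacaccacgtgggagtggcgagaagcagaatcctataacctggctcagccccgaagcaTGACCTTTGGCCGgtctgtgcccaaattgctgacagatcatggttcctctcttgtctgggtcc
Pdk4: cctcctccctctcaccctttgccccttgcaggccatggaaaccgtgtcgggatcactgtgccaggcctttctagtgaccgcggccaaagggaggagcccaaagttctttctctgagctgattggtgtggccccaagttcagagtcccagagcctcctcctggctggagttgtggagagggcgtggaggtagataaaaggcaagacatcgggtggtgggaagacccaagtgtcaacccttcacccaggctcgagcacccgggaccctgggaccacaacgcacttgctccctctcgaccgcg
Acot1: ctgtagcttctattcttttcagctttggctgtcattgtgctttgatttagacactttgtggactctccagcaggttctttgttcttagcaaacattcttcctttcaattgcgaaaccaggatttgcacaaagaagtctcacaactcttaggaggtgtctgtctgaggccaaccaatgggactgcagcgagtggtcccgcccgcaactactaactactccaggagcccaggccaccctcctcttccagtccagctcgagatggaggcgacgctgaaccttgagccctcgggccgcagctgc
A match or its lack describes these letters in these windows only, and no binding was measured.

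All values below are log2 of the probe set signal plus 17.3, a constant near the dim end of the signals. A member is said to have risen or fallen, or to be called, where limma's moderated test across all 18193 genes gave a Benjamini-Hochberg adjusted p under 0.05 and the fold was 1.5 or more. Comparisons within a run share an estimate of the spread, and comparisons that use the same control set share those arrays. Levels are not compared between genes, since each probe set has its own brightness.

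Among control mice of the same set, the members varied less than the array as a whole. The median of the members' standard deviations within control sets was 0.29 on the log2 scale, against 0.44 over all genes. The members' probe sets were also brighter, with a median control level of 12.88 against 7.58 over all genes, and the part of brightness in the smaller spread was not tested. Only 6 of the 33 members had a standard deviation above the median of 0.44 over all genes. These were Pdk4 (0.80), the kinase that shuts off pyruvate dehydrogenase and so spares glucose, the omega-hydroxylase Cyp4a14 (0.72), the acyl-CoA thioesterases Acot1 (0.72) and Acot3 (0.63), the pantetheinase Vnn1 (0.66) and the fatty acid transporter Slc27a1 (0.54). The steadiest was Acadvl, the very-long-chain acyl-CoA dehydrogenase, at 0.13.

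The clearest difference that any member showed lay between control mice. In run D the 10 mice given corn oil by gavage had more Pdk4 RNA than the 15 mice kept in air chambers. The log2 signal of Pdk4 had its lowest value at 10.83, its median at 11.52 and its highest at 12.82 in the oil controls, and at 8.51, 9.44 and 9.85 in the air controls. Every oil control was above every air control, and the difference was 2.23 ± 0.23 (SE, limma adjusted p = 2.41e-12). In that comparison 6 of 33 members rose and none fell, where 0.693% of all genes rose and 0.137% fell. By unadjusted p under 0.05, 17 members were higher and 0 lower (51.5% of members, against 14.9% of all genes in either direction). The median over members was 0.21 and that over all genes 0.04.

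The other members that were higher in the oil controls of run D were 3 thioesterases, a peroxisome gene and a secreted lipase inhibitor. Acot3, which frees fatty acids from medium to long acyl-CoA in peroxisomes, was 1.16 ± 0.19 higher, with 11.67, 12.47 and 13.53 as its lowest, median and highest value in oil and 10.13, 11.25 and 12.30 in air. Pex11a, which helps peroxisomes to divide, was 0.88 ± 0.11 higher, from 11.57 to 12.72 in oil and from 10.94 to 11.59 in air, so that the ranges overlapped by a narrow margin. The calls of Acot3, Pex11a and Pdk4 were kept without any 1 of the 25 control arrays. Acot1 was 0.81 higher and Acot2, its mitochondrial relative, was 0.64 higher, and Angptl4, the inhibitor of lipoprotein lipase, was 0.77 higher. With the control set as a random block, 4 of the 6 stayed called, and Acot1 (adjusted p = 0.111) and Acot2 (adjusted p = 0.0539) did not.

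Other genes of lipid and fasting metabolism were also higher in the oil controls of run D. The hormone Fgf21, which the liver secretes on fasting, was 2.32 ± 0.28 higher, the lipase inhibitor G0s2 was 1.32 higher, the peroxisomal transporter Abcd2 was 1.00 higher and Igfbp1 was 1.01 higher. Of a list of 9 genes of the fasting response, Pdk4 among them, 3 rose, and its summed signal ran from 86750 to 131912 in the oil sets and from 71104 to 107303 in the air sets. No gene of the lists of other liver cell types was called. The oil and air sets belonged to different chemicals' studies, so vehicle, route and study cannot be told apart, and the part of fasting in the result was not tested. Between sets of the same vehicle label no member was called in any of 5 contrasts, where at most 0.11% of all genes rose and 0.0165% fell. By unadjusted p under 0.05 these contrasts held between 0 and 5 members each, and 4.91% to 12.4% of all genes.

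**Figure D1:**
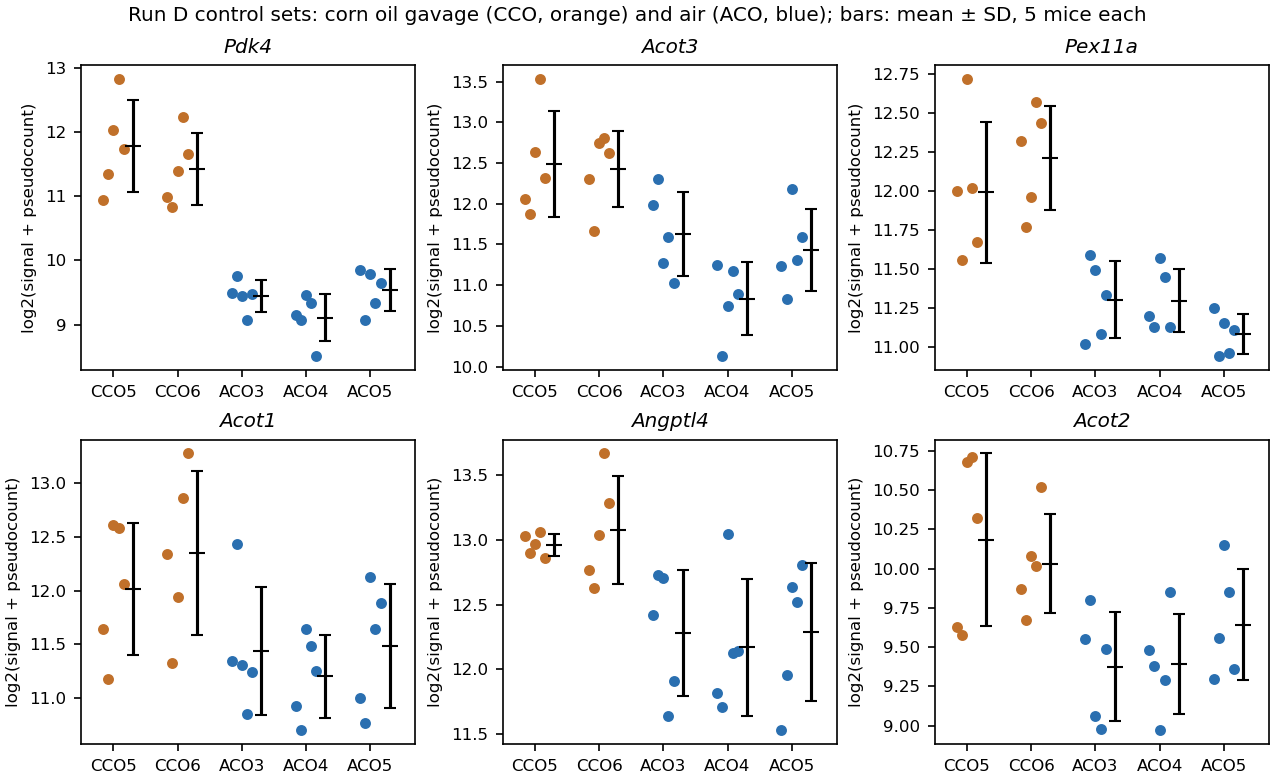
Log2 signal of the 6 members called between the corn oil and air control sets of run D, one point per mouse for each control set (CCO5 and CCO6 oil, ACO3, ACO4 and ACO5 air), with bars at the mean ± SD of 5 mice. The oil values of Pdk4 (10.83 to 12.82) lie wholly above the air values (8.51 to 9.85), while those of Acot1, Acot2, Acot3, Angptl4 and Pex11a overlap.

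In run B the oil and air controls differed across much of the array: 15.8% of all genes rose and 12.8% fell, and among the members 8 rose and 3 fell. Pdk4 rose, at 10.80 to 11.63 against 9.62 to 10.18 with no overlap, but this call was kept in only 3 of 8 cases with 1 array left out (adjusted p up to 0.0995). Acadm, Etfdh, Hadhb, Ehhadh, Hsd17b4, Aldh3a2 and Cpt1a rose as well, while Acaa1a, Angptl4 and Slc27a1 fell. Angptl4 was -0.81 in run B and 0.77 in run D, and these calls were lost in 2 of 8 and 8 of 25 cases with 1 array left out. Its second probe set had 0.11 and 0.27, neither of them called. Without replicate 4 of the air set, 11 members rose and 5 fell (19.2% and 18.0% of all genes). Chow minus air in run B gave 8 members that rose and 1, Ech1, that fell (8.04% and 4.88% of all genes, with a median over all genes of -0.13), and 11 and 4 without that array (15.1% and 14.4%). No member was called between vehicles in run A, where 0.0% of genes were called in each of 3 contrasts and limma's unadjusted p was under 0.05 for 1 to 3 members (3.3% to 7.11% of all genes), or between oil and chow in runs B and C (2 members each by unadjusted p, with 9.35% and 6.67% of all genes).

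Across the 59 control mice, members moved together. Each array's value was taken as a deviation from the mean of its control set, and each of the other 18192 genes was correlated with Cyp4a14, a sensitive PPARalpha target in mouse liver. All 32 other members had a Pearson r above 0, with a median of 0.55, while the median over all genes was -0.03. With adjustment over all genes, 12 members passed a two-sided permutation test of r at 0.05 and all 12 were positive, where 0.198% of all genes passed with a positive and 0.022% with a negative r. Of the 100 genes with the highest r, 23 were members. The arrays share the preparation and scaling of their run, and shared handling can also move genes together.

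Ehhadh, the bifunctional enzyme of peroxisomal oxidation, had the highest r of all genes with Cyp4a14 (r = 0.78, rho = 0.73). Acot1 was the third (r = 0.75, rho = 0.72), Acadl, the long-chain acyl-CoA dehydrogenase, the fourth (r = 0.75, rho = 0.74) and Vnn1 the seventh (r = 0.70, rho = 0.76). For these 4, the permutation p was 1e-05, the smallest that 100000 permutations can give, and the adjusted p was 0.0101. Aldh3a2, Hsd17b4, Slc27a2, Acot2, Pex11a and Hadhb followed with r between 0.62 and 0.67 and the same adjusted p, and Acot4 (r = 0.63) and Cpt1a (r = 0.56) had an adjusted p of 0.0352. Pdk4 had r = 0.52 and an adjusted p of 0.0946. At the other end lay Slc27a1 (r = 0.05) and Acaa1a (r = 0.05). Acaa1a encodes a thiolase almost identical in sequence to that of Acaa1b (r = 0.49).

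Without the 2 mice farthest from the median of Cyp4a14 (replicate 2 of CCO3 and of WCO1), the median r of the members was 0.53 and that of Ehhadh 0.70. Replicate 4 of the air set ACO1 was kept in all these correlations, and its part in them was not tested. Within runs the members' median r was 0.69 in run A (16 arrays), 0.64 in run B (12 arrays), 0.29 in run C (6 arrays) and 0.39 in run D (25 arrays), while the median of all genes lay between -0.05 and 0.01. Of the 32 members r was above 0 for 32 in run A, 28 in run B, 24 in run C and 31 in run D. In run C it was -0.55 for Acadl and -0.82 for Decr2, and in run B -0.53 for Slc27a1. By Spearman's rho, 11 members had an adjusted p under 0.05.

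**Figure D2:**
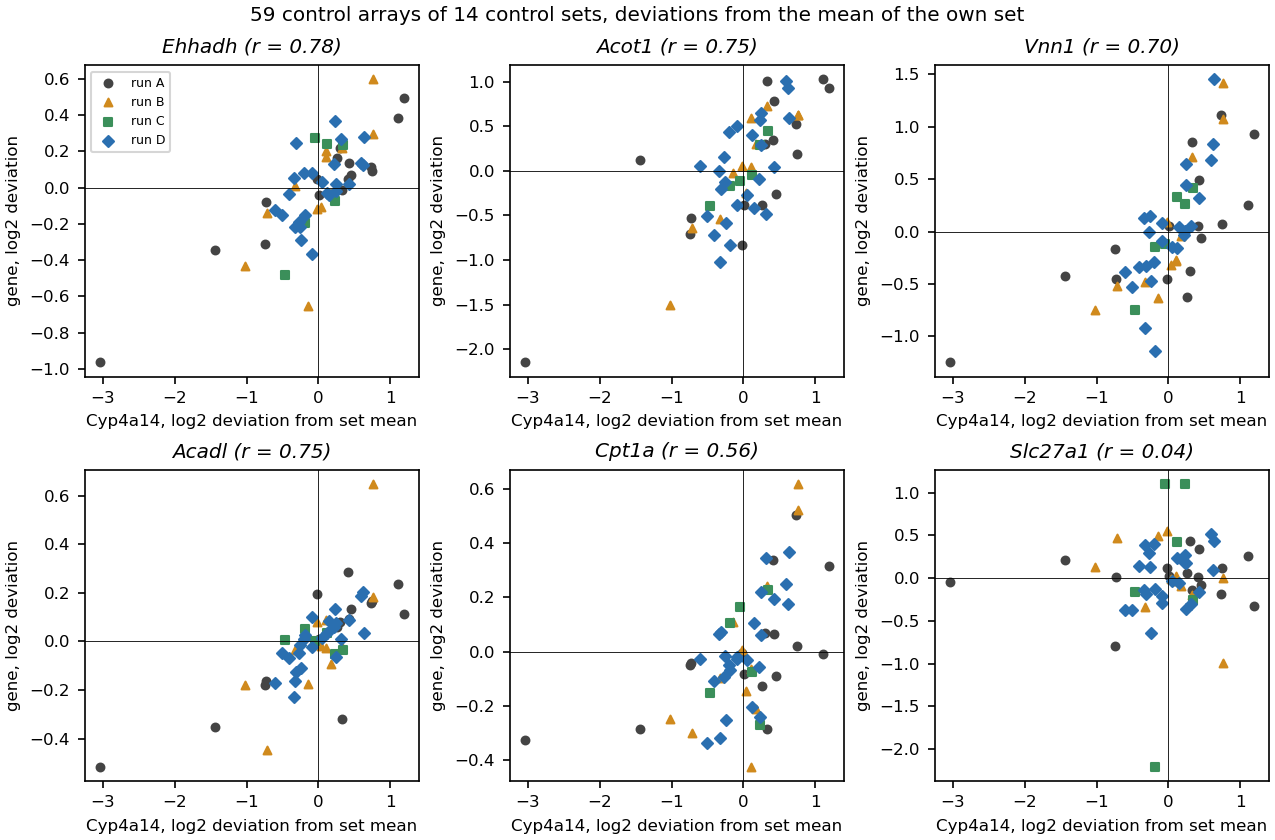
Deviation of 6 members from the mean of their control set plotted against that of Cyp4a14 (both log2) in 59 control mice, coloured by run. Ehhadh (r = 0.78) and Acot1 (r = 0.75) follow Cyp4a14 closely, while Slc27a1 (r = 0.05) does not.

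In the treated groups few of the members' tests gave a call, though a larger share than over all genes. At least 1 member was called in 14 of 46 groups and for 7 of 26 chemicals, and the 33 members gave 27 calls in 1518 tests, 10 of them higher and 17 lower. That is 1.78% of the members' tests, where 0.751% of all gene tests were called, 0.331% higher and 0.42% lower. The calls came from 13 members, and 20 members were never called. The median change of the members lay between -0.35 (Malathion) and 0.28 (N-Methylolacrylamide) over the 46 groups. No group had the joint rise of Cyp4a and peroxisomal genes above: Cyp4a14 was called higher in 0 of 46 groups, with its largest positive value at 0.81, and Ehhadh reached at most 0.75. These counts use every control array. Without replicate 4 of the air set ACO1, left out after seeing the data, 6 members were called higher after Tetrafluoroethylene. Ehhadh was among them (0.95), as given below. Cyp4a14 was not called there either (0.37). By unadjusted p under 0.05, limma gave 70 of 1056 member tests (6.63%) in the 32 groups without a call, where it gave 7.99% over all genes.

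Counted by role, the calls often lay on 1 gene called at several doses. The 7 peroxisomal members gave 9 calls higher and 4 lower. These came from 4 of the 7, and Decr2 alone gave 6 higher and 2 lower. The 4 thioesterases gave 1 higher and 5 lower, and Pdk4 alone gave 3 lower. The 4 members of the carnitine shuttle gave 2 calls, the 8 of mitochondrial oxidation 1, the 4 of uptake and binding 1 and Cyp4a14 1, all of them lower. Of the 27 calls, 7 were kept when any 1 array of the groups compared was left out, and 20 were lost without at least 1 of them. With only the 2 groups compared in each fit, which leaves fewer arrays to estimate the spread, 1 of the 27 was made, that of Cpt1a after Malathion. A lost call need not mean a smaller value or a larger error: Pdk4 at 4000 ppm of Methylene Chloride kept its -1.31 there, with an SE of 0.25 against 0.37 (adjusted p = 0.0765). With the 2 dim arrays left as deposited, 16 calls were made.

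**Figure D3:**
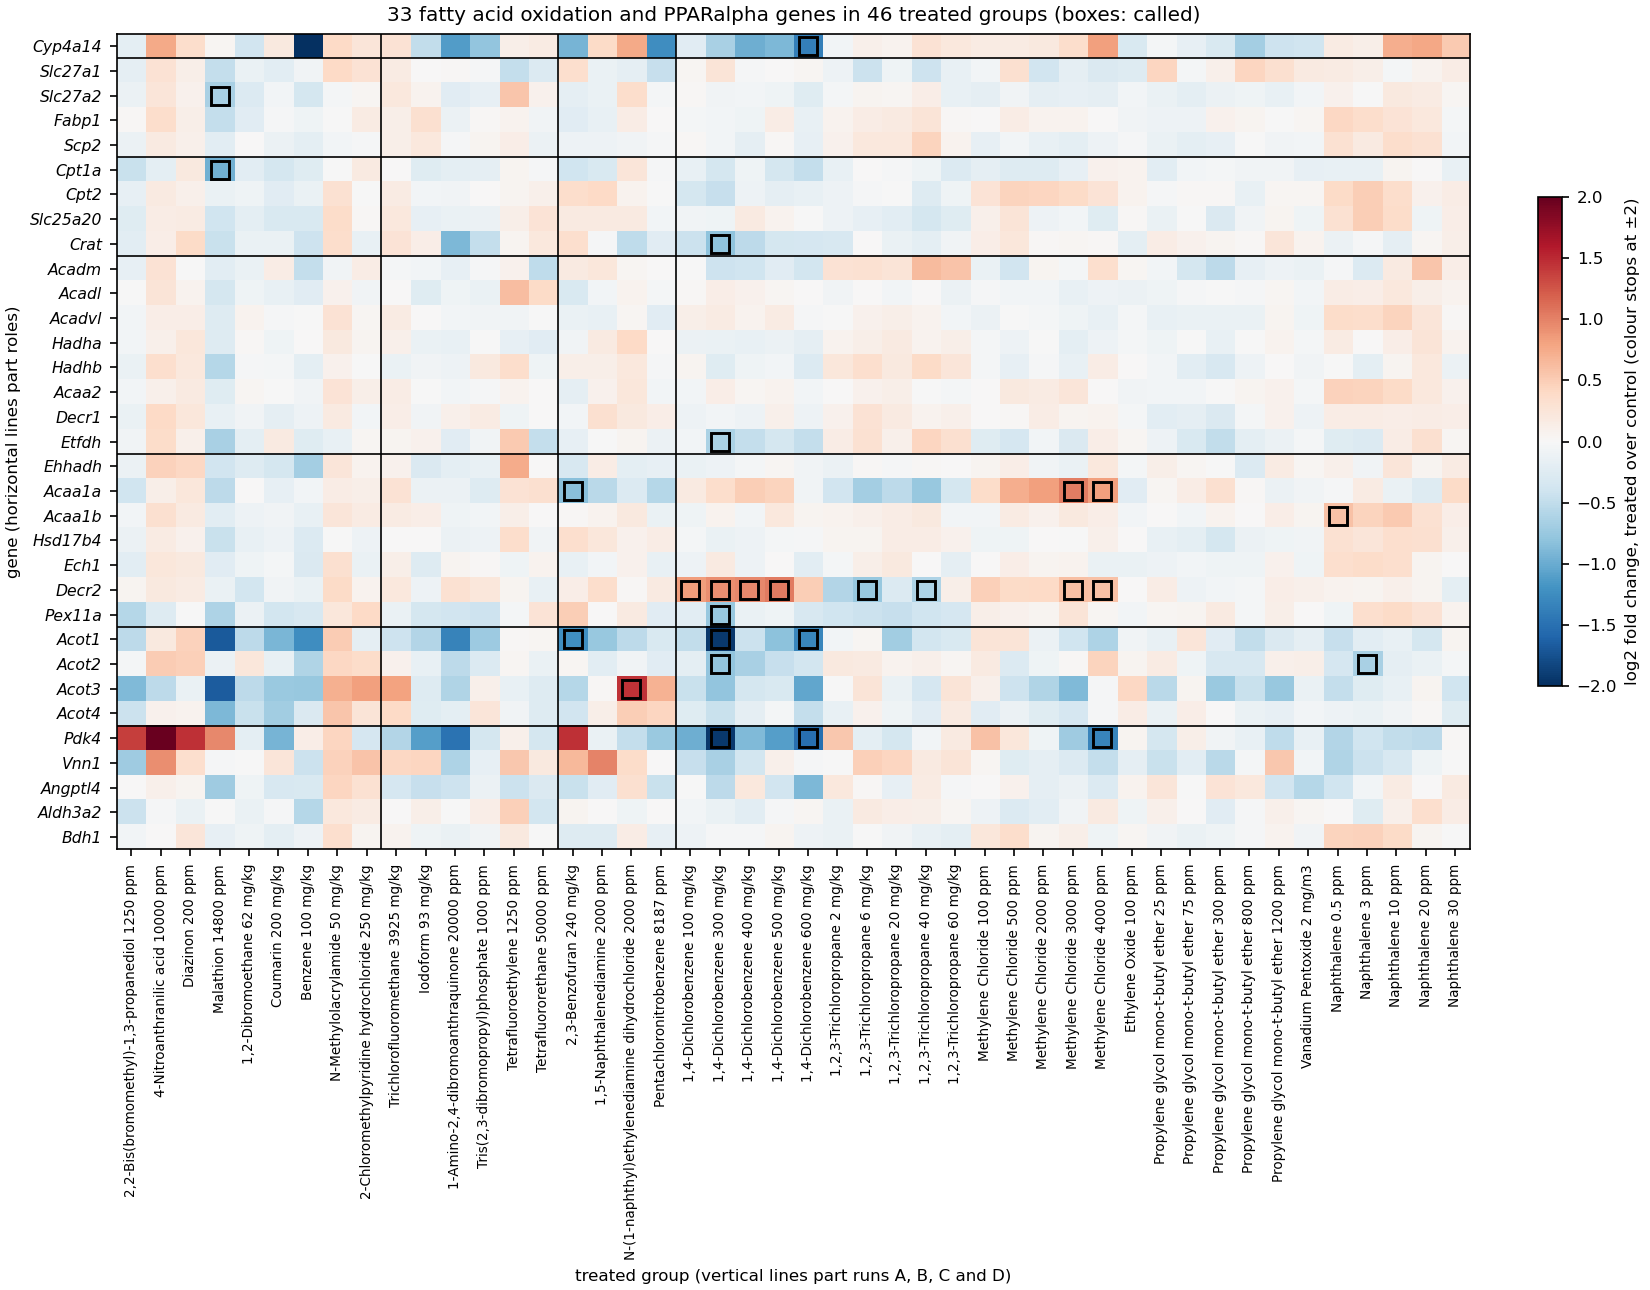
Log2 difference from control of the 33 members (rows, ordered by role) in the 46 treated groups (columns), on a colour scale from blue (lower) to red (higher), which stops at 2 in either direction, with boxes around the 27 calls. Decr2 is red and Pdk4 and Acot1 are blue across the 1,4-Dichlorobenzene doses.

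Decr2, the peroxisomal dienoyl-CoA reductase that handles polyunsaturated fatty acids, was the member called most often, 6 times higher and 2 times lower. 1,4-Dichlorobenzene raised it at 4 of 5 doses. The 5 oil controls (CCO5) had log2 signals of 11.41, 11.25, 12.02, 11.81 and 11.83. At 100 mg/kg the 4 mice had 12.31, 12.46, 12.79 and 12.44, and at 500 mg/kg 12.65, 12.66, 12.74 and 12.78. All mice at 100, 300, 400 and 500 mg/kg were above all 5 controls. The differences at these doses were 0.84 (adjusted p = 0.0132), 0.94 (adjusted p = 0.0002), 0.96 (adjusted p = 0.00027) and 1.05 (adjusted p = 1.55e-05), each ± 0.17. At 600 mg/kg the mice had 11.87, 11.98, 12.45 and 12.31, the difference was 0.49 and the adjusted p was 0.219, so the highest dose was not called and the trend over doses was not either (0.44, adjusted p = 0.105). The calls at 300, 400 and 500 mg/kg were kept without any 1 array, and that at 100 mg/kg was lost in 4 of 9 cases. At 100 mg/kg only 0.033% of all genes rose and 0.0385% fell, at 400 mg/kg 0.313% and 0.148%, and at 500 mg/kg 0.561% and 0.242%, and Decr2 was the only member called at each of these doses.

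**Figure D4:**
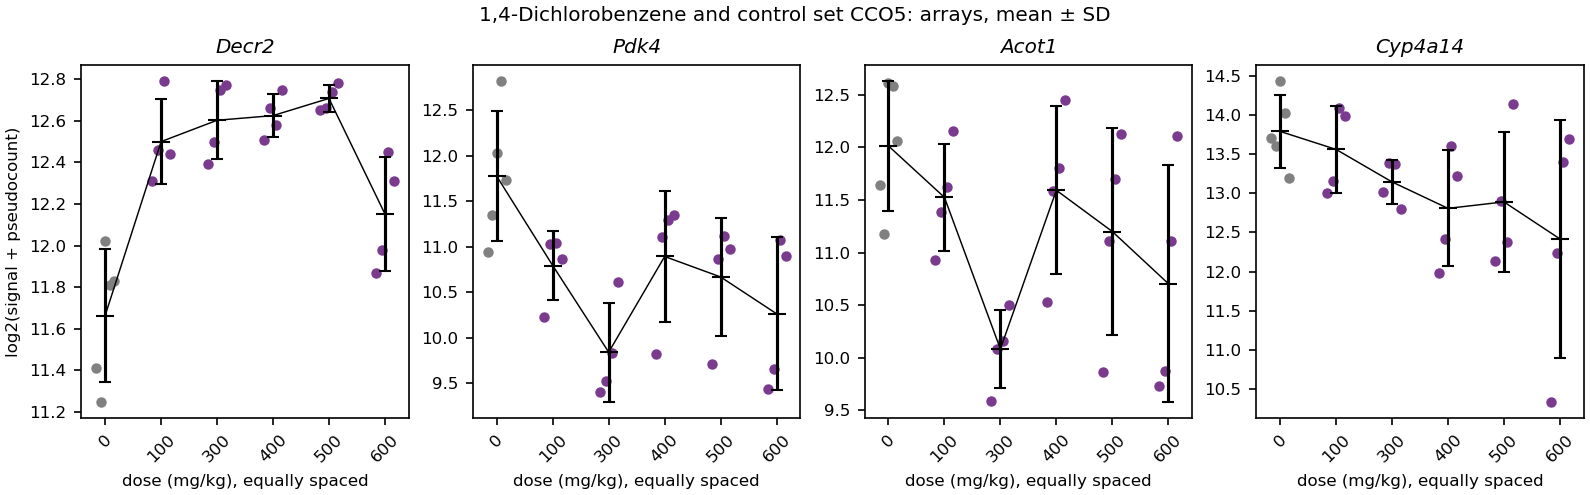
Log2 signal of Decr2, Pdk4, Acot1 and Cyp4a14 after 1,4-Dichlorobenzene, by dose in mg/kg, one point per mouse and a line through the group means, with the 5 oil controls at 0. Decr2 is above all controls from 100 to 500 mg/kg, and Pdk4 and Acot1 are lowest at 300 mg/kg.

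Methylene Chloride also raised Decr2, at its higher doses. The air controls (ACO4) had 11.33, 11.09, 11.38, 11.92 and 11.40, the mice at 3000 ppm 11.98, 11.82, 12.12 and 12.20, and those at 4000 ppm 12.07, 12.21, 11.79 and 11.98. The groups overlapped only through the fourth control. The differences were 0.61 ± 0.17 (adjusted p = 0.0215) and 0.59 ± 0.17 (adjusted p = 0.0277), and they were lost in 4 and 7 of 9 cases when 1 array was left out. The trend over doses was 0.48 with an adjusted p of 0.0309, which is under 1.5-fold.

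After 1,2,3-Trichloropropane, Decr2 fell at 6 and 40 mg/kg and was not called at the other 3 doses. The oil controls (CCO6) had 11.50, 11.97, 12.14, 12.11 and 12.18. Mice at 6 mg/kg had 11.04, 11.39, 11.44 and 11.00, a difference of -0.76 ± 0.17 (adjusted p = 0.0148), and mice at 40 mg/kg had 11.59, 11.12, 11.15 and 11.58, a difference of -0.62 ± 0.17 (adjusted p = 0.0367). At 2 and 20 mg/kg the differences were -0.58 (adjusted p = 0.204) and -0.28 (adjusted p = 0.771). Decr2 was the only member called at 6 or 40 mg/kg, where 0.0275% and 0.522% of all genes rose and 0.214% and 0.813% fell. At 60 mg/kg the values were 12.05, 12.18, 12.39 and 11.75, which overlapped the controls, and the difference was 0.11. Both calls were lost when the 2 oil sets of run D were pooled as controls.

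Acaa1a encodes a peroxisomal thiolase, the enzyme of the last step of the cycle. It rose with Methylene Chloride: the air controls had 10.14, 9.69, 10.68, 10.27 and 10.01, the mice at 3000 ppm 11.46, 10.67, 11.20 and 11.41, and those at 4000 ppm 10.91, 10.97, 11.12 and 10.91. At 4000 ppm every mouse was above every control. The differences from 100 ppm upwards were 0.37, 0.72, 0.81, 1.03 and 0.82, and they were called at 3000 ppm (adjusted p = 0.00371, kept without any 1 array) and 4000 ppm (adjusted p = 0.0275, lost in 5 of 9 cases). The trend, scaled to the step from control to the highest dose, was 0.88 ± 0.21 (adjusted p = 0.00193) and kept in 25 of 25 cases with 1 array left out. A second probe set of the gene did not follow, with 0.37 at 3000 ppm, -0.21 at 4000 ppm and a trend of -0.04, none of them called. At 3000 ppm 1.51% of all genes rose and 1.53% fell, and 2 members rose. At 4000 ppm these shares were 1.18% and 1.74%, and 2 members rose and 1 fell. Acaa1a fell after 2,3-Benzofuran, as given with Acot1 below.

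Acaa1b, the thiolase of the pair that responds most to PPARalpha activators in mouse, rose after Naphthalene at its lowest dose. The 4 mice at 0.5 ppm had 15.96, 16.15, 16.40 and 16.49, all above the air controls (ACO5) at 15.65, 15.73, 15.68, 15.49 and 15.73. The difference was 0.59 ± 0.12 (adjusted p = 0.00128) where 0.863% of all genes rose and 1.63% fell. It was 0.45 at 3 ppm (adjusted p = 0.012) and 0.52 at 10 ppm (adjusted p = 0.0131), both under 1.5-fold, and 0.31 and 0.13 at 20 and 30 ppm. Acadvl had a like pattern below 1.5-fold, with 0.37, 0.35 and 0.44 at 0.5, 3 and 10 ppm (adjusted p = 0.00533, 0.00611 and 0.00215) and 0.24 and 0.03 above. Under quantile normalisation the difference of Acaa1b at 0.5 ppm was 0.12 with an adjusted p of 0.541. At 0.5 ppm 2 of 6 hepatocyte markers were also called higher, their summed signal ran from 339531 to 514555 against 277331 to 336050 in the controls, and 4 of 10 genes of the fed state and fatty acid synthesis were called higher. Their part in the result was not tested.

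Pex11a and the remaining peroxisomal members Ehhadh, Hsd17b4 and Ech1 were called in 1 group at most. Pex11a fell at 300 mg/kg of 1,4-Dichlorobenzene, where the mice had 11.29, 11.25, 11.18 and 11.24 and the controls 12.00, 11.56, 12.72, 12.02 and 11.67. The groups did not overlap, the difference was -0.75 ± 0.18, and a second probe set gave -0.71 (adjusted p = 0.0192). With all control arrays, Ehhadh, Hsd17b4 and Ech1 were not called in any of the 46 groups, with changes between -0.68 and 0.75 for Ehhadh. Without replicate 4 of the air set ACO1, left out after seeing the data, Ehhadh (0.95) and Hsd17b4 (0.65) were called higher after Tetrafluoroethylene.

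The acyl-CoA thioesterases release fatty acids from coenzyme A, and Acot1 in the cytosol was the one called most often, 3 times lower. At 300 mg/kg of 1,4-Dichlorobenzene the mice had 9.59, 10.08, 10.16 and 10.50, and the controls had 11.64, 11.18, 12.61, 12.58 and 12.06. No mouse reached the lowest control. The difference was -1.93 ± 0.36 (adjusted p = 0.000194), a 3.81-fold decrease, and it was kept without any 1 array. At 600 mg/kg the mice had 9.73, 9.87, 11.11 and 12.11, which overlapped the controls, and the difference of -1.31 (adjusted p = 0.0438) was lost in 6 of 9 cases with 1 array left out. At 100, 400 and 500 mg/kg the differences were -0.49, -0.42 and -0.81 and not called.

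The 300 mg/kg dose of 1,4-Dichlorobenzene had the most member calls of any treated group, 1 higher and 6 lower, where 0.737% of all genes rose and 1.26% fell. Besides Decr2, Pdk4, Acot1 and Pex11a, Acot2 fell by 0.79, with 8.91, 9.54, 9.58 and 9.56 against 9.63, 9.58, 10.68, 10.71 and 10.32. Crat, the carnitine acetyltransferase that exports acetyl groups from mitochondria, fell by 0.81, with 9.11, 9.54, 9.62 and 9.37 against 10.37, 9.54, 11.00, 10.22 and 9.98. Etfdh, which passes electrons from mitochondrial oxidation to ubiquinone, fell by 0.63, with 12.32, 12.64, 12.36 and 12.08, all under the controls at 13.03, 12.92, 13.10, 12.86 and 13.00. Of these, Crat and Pex11a were lost only without replicate 3 of the controls, the highest in both genes (-0.62 and -0.57 without it), Acot2 in 4 and Etfdh in 6 of 9 cases. None of these 4 was called at 400, 500 or 600 mg/kg. Other probe sets of Acot2 (-0.41), Crat (-0.27 and -0.14) and Etfdh (-0.30) were also negative at 300 mg/kg, but none was called. Of the 9 fasting genes 2 were called lower and 0 higher in the same group, and Pdk4 itself is 1 of these 2. Of 3 markers of the receptors CAR and AhR, 2 were called higher there and at 600 mg/kg. The part of these in the members' result was not tested.

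2,3-Benzofuran gave 2 calls with 3 mice against 3 oil controls, where 1.35% of all genes rose and 1.92% fell and the median over all genes was -0.12. Acot1 was at 9.32, 9.15 and 9.80 against 10.93, 10.47 and 10.52, a difference of -1.22 ± 0.31 (adjusted p = 0.0427). Acaa1a was at 9.65, 9.15 and 9.42 against 10.14, 10.08 and 10.53, a difference of -0.84 ± 0.20 (adjusted p = 0.0295). Neither overlapped its controls. Both were fragile: the call of Acot1 was kept in 0 and that of Acaa1a in 1 of 6 cases with 1 mouse left out, with adjusted p up to 0.139 and 0.111. A second probe set of Acaa1a gave -0.73 and was not called. Malathion had an Acot1 difference of -1.68 (adjusted p = 0.142), with 10.81, 10.93, 10.60, 10.39 and 11.65 against 13.19, 11.69, 12.71 and 12.03.

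Acot3 and Acot2 gave the remaining thioesterase calls. N-(1-naphthyl)ethylenediamine dihydrochloride raised Acot3 to 12.05, 12.15 and 12.68 against 11.50, 10.52 and 10.51 in the chow controls, with no overlap and a difference of 1.45 ± 0.27 (adjusted p = 0.0379, where 0.236% of all genes rose and 0.456% fell). The oil controls of the same run, which were not its controls, had 12.09, 11.86 and 12.30, as high as the treated mice. The call was kept in 1 of 6 cases with 1 mouse left out. Naphthalene at 3 ppm lowered Acot2 to 9.01, 8.98, 8.95 and 9.02, all under the air controls at 9.30, 9.56, 10.15, 9.85 and 9.36. That difference was -0.65 (adjusted p = 0.0397, where 1.22% of all genes rose and 2.92% fell) and was lost in 8 of 9 cases. A second probe set of Acot2 gave -0.32 and was not called. Acot4 was not called in any group.

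Pdk4 was called lower 3 times and higher 0 times, although its values after treatment spanned the widest range of all members, from -1.93 to 1.97. At 300 mg/kg of 1,4-Dichlorobenzene the mice had 9.40, 9.52, 9.83 and 10.61, all under the controls at 10.94, 11.35, 12.03, 12.82 and 11.73. The difference was -1.93 ± 0.37 (adjusted p = 0.00041), kept without any 1 array. At 600 mg/kg the mice had 9.43, 9.65, 11.07 and 10.90, of which 1 reached the range of the controls, and the difference was -1.51 (adjusted p = 0.0169, lost in 4 of 9 cases). At 100, 400 and 500 mg/kg the differences were -0.98, -0.88 and -1.10 and not called. These oil controls are the set with the highest mean of Pdk4 of all 14, at 11.77, while the lowest was 8.93 in the chow set FCO2.

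Methylene Chloride lowered Pdk4 with dose. The air controls had 9.15, 9.07, 9.46, 9.34 and 8.51, and the mice at 4000 ppm had 7.91, 8.04, 8.07 and 7.16, all below them. The difference was -1.31 ± 0.37 (adjusted p = 0.0194). It was lost without the lowest treated mouse (-1.10, adjusted p = 0.128) or without replicate 3 of the controls (adjusted p = 0.0565). From 100 to 3000 ppm the differences were 0.59, 0.22, -0.09 and -0.71. The trend over doses was -1.54 ± 0.32 (adjusted p = 0.000321), where 1.43% of all genes rose and 2.07% fell with dose, and it was kept under all 34 alternatives run for it (-1.90 to -1.36). Of 11 clock genes 6 were called higher and 2 lower at 4000 ppm, among them Dbp at 4.48 and Arntl at -2.05, and the summed signal of the list ran from 12637 to 24862 against 5072 to 8920 in the controls. Of the 9 fasting genes 0 were called higher and 3 lower, and Pdk4 itself is 1 of these 3. The part of these in the result was not tested.

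**Figure D5:**
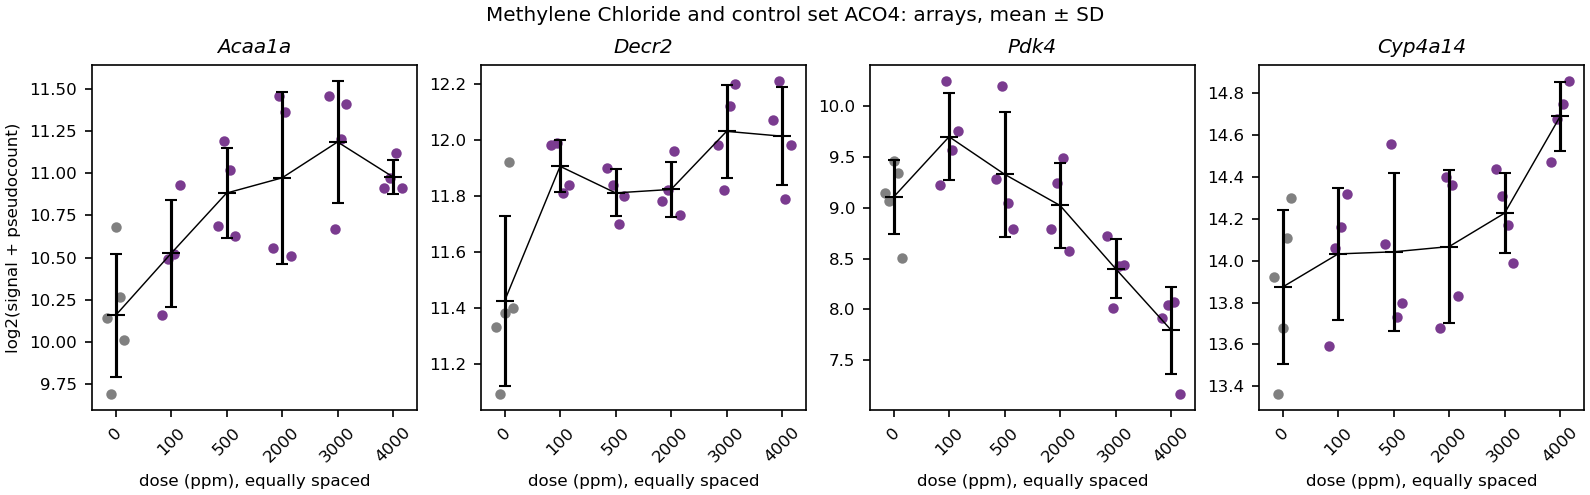
Log2 signal of Acaa1a, Decr2, Pdk4 and Cyp4a14 after Methylene Chloride, by concentration in ppm, one point per mouse and a line through the group means, with the 5 air controls at 0. Acaa1a and Decr2 are higher at 3000 and 4000 ppm than in the controls, and Pdk4 is lowest at 4000 ppm.

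Malathion lowered 1 gene of the carnitine shuttle and 1 of fatty acid uptake. Cpt1a, the enzyme that controls the entry of long-chain fatty acids into mitochondria, was at 12.35, 12.19, 12.25, 12.32 and 13.06 in the treated mice and at 13.39, 13.27, 13.39 and 13.24 in the chow controls (FCO2). All 5 treated mice were under all 4 controls, the fifth by the least. The difference was -0.97 ± 0.24 (adjusted p = 0.01), a 1.95-fold decrease, kept without any 1 array (-1.09 to -0.90) and without the 2 treated arrays of lowest RNA integrity (-1.08). Other probe sets of Cpt1a gave -0.66 and -0.74 with adjusted p of 0.317 and 0.205. Slc27a2, which takes up and activates long and very long fatty acids, was at 14.73, 14.53, 14.22, 14.28 and 14.67 against 15.20, 14.98, 15.34 and 15.24, again with no overlap (-0.66 ± 0.18, adjusted p = 0.0203, lost in 4 of 9 cases). Of the 33 members 31 had a negative value. By limma's unadjusted p under 0.05, 12 members were lower and 0 higher (36.4% of members, against 16.4% of all genes in either direction). Of all genes 2.36% rose and 2.01% fell, and all 3 CAR and AhR markers were called higher. The stated RNA integrity numbers of the treated arrays were all below those of these controls, and their part in the count of negative members was not tested.

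With all control arrays in use, most genes of the mitochondrial cycle itself were not called after treatment. Acadm, Acadl, Acadvl, Hadha, Hadhb, Acaa2 and Decr1, the dehydrogenases, trifunctional protein, thiolase and dienoyl-CoA reductase, were not called in any of the 46 groups. Their values lay between -0.57 (Hadhb) and 0.64 (Acadm). Cpt2 and Slc25a20, which complete the carnitine shuttle, Fabp1, Scp2 and Slc27a1 in uptake and binding, and Vnn1, Angptl4, Aldh3a2 and Bdh1 were not called in any treated group either. The widest of these values was 1.00 for Vnn1. Some of these genes passed limma's adjusted test but stayed under 1.5-fold. After Naphthalene these included Acaa2 at 0.5 ppm (0.47, adjusted p = 0.0062) and Acadvl at 10 ppm (0.44, adjusted p = 0.00215). At 3 ppm they included Cpt2 (0.49, adjusted p = 0.0194) and Slc25a20 (0.50, adjusted p = 0.0317).

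Cyp4a14 was called once, lower at 600 mg/kg of 1,4-Dichlorobenzene, where 0.533% of all genes rose and 0.17% fell and 3 members fell. The mice had 10.34, 12.24, 13.40 and 13.69, and the controls had 13.71, 13.60, 14.43, 14.02 and 13.19. The difference was -1.37 ± 0.34 (adjusted p = 0.0178) and rested on the first mouse: without it the value was -0.68 with an adjusted p of 0.563. The differences from 100 mg/kg upwards were -0.23, -0.64, -0.98, -0.90 and -1.37. The trend was -1.32 ± 0.29 (adjusted p = 0.00234, where 0.808% of all genes rose and 0.308% fell with dose) and was -0.82 with an adjusted p of 0.115 without that mouse. The probe set shared by Cyp4a10 and Cyp4a31 was called in 0 of 65 comparisons, and its changes after treatment ran from -1.44 (Benzene, unadjusted p = 0.0105) to 0.49 (4-Nitroanthranilic acid). Benzene gave the most negative Cyp4a14 value, -2.27, from mice at 10.57, 8.73, 13.59 and 14.59 against controls at 13.38, 14.52, 14.45 and 14.10. Only the first and second mice were low, and the adjusted p was 1.

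No member followed the dose of the remaining 3 chemicals given at several doses. In the trends 0.214% and 0.363% of all genes rose and fell with the dose of 1,2,3-Trichloropropane, 0.203% and 0.0495% with that of Propylene glycol mono-t-butyl ether, and 0.0275% and 0.066% with that of Naphthalene. By limma's unadjusted p under 0.05 the trends held 3, 1 and 4 members (9.09%, 3.03% and 12.1%), where they held 12.9%, 9.95% and 9.1% of all genes. At the highest doses of these chemicals no member was called, and the lowest unadjusted p belonged to Acadm (0.57, adjusted p = 0.295), Acot3 (-0.76) and Acaa1a (0.39). At 10 ppm of Naphthalene 14 members had an unadjusted p under 0.05, all of them positive (42.4% of members and 13.7% of all genes), and none was called.

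Among the 19 chemicals without a call, the share of members with a low unadjusted p varied between chemicals. Per chemical given at 1 dose, between 0 and 7 of 33 members had an unadjusted p under 0.05, the most after 1,5-Naphthalenediamine (21.2% of members and 21.0% of all genes, of which 1.21% rose and 2.19% fell, with a median over all genes of -0.12). Its lowest p was that of Vnn1, at 12.21, 12.10 and 12.86 against 11.72, 11.81 and 10.64, with no overlap (1.00, adjusted p = 0.067). After Pentachloronitrobenzene it was Cyp4a14, at 11.90, 13.20 and 12.54 against 13.92, 14.14 and 13.33 (-1.25, adjusted p = 0.165), again with no overlap. In the libraries labelled 1-Amino-2,4-dibromoanthraquinone it was Crat, at 10.12, 9.99, 9.35 and 9.09 against 10.65, 10.67, 9.61 and 11.22 (-0.90, adjusted p = 0.832). Pdk4 had the lowest p after 4 chemicals, with 1.97 after 4-Nitroanthranilic acid (adjusted p = 0.561), 1.46 after Diazinon, 1.38 after 2,2-Bis(bromomethyl)-1,3-propanediol and -1.11 after Iodoform. The first 3 of these share the chow set FCO2, whose Pdk4 values were 9.95, 7.75, 9.68 and 8.34.

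Of all genes 0.275% rose and 0.0824% fell after Coumarin, 0.066% and 0.044% after 4-Nitroanthranilic acid, and 0.011% and 0.0055% after Tetrafluororethane. After 2-Chloromethylpyridine hydrochloride it was 0.0055% in each direction. After Iodoform 0.0605% rose and 0.0% fell, after Trichlorofluoromethane 0.0055% and 0.0%, and after 2,2-Bis(bromomethyl)-1,3-propanediol 0.0% and 0.0055%. For the other chemicals without a call, the member with the lowest p was Slc27a2 after 1,2-Dibromoethane (-0.27), Acot4 after Coumarin (-0.70), Acadvl after N-Methylolacrylamide (0.29) and Pex11a after 2-Chloromethylpyridine hydrochloride (0.40). It was Acot3 after Trichlorofluoromethane (0.80), Pex11a after Tris(2,3-dibromopropyl)phosphate (-0.41), Acadl after Tetrafluororethane (0.39) and Ethylene Oxide (-0.12), and Angptl4 after Vanadium Pentoxide (-0.57). The lowest adjusted p among these was 0.589, that of Acadl after Tetrafluororethane.

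Tetrafluoroethylene was the chemical whose result turned on the control array that stood apart. With all 4 air controls no member was called, and 0.17% of all genes rose and 0.0385% fell. An unadjusted p under 0.05 was found for 3 members (9.09%) and for 10.6% of all genes. Without replicate 4 of the controls, 6 members rose and 0 fell, where 4.85% of all genes rose and 1.37% fell. That array was left out after seeing the data. Of the members then called, it lay above its set mean in Etfdh (1.73), Hsd17b4 (0.90), Slc27a2 (0.70), Acadl (0.65) and Ehhadh (0.60). Leaving it out lowers the control mean of these members, so their calls are no separate support for a rise. Acadl was at 13.53, 13.59, 13.67 and 13.58 against 12.95, 12.53, 12.80 and, in replicate 4, 13.63, which gave 0.61 (adjusted p = 0.159) with it and 0.83 (adjusted p = 0.00136) without it. Ehhadh was at 13.77, 13.96, 13.88 and 13.62 against 13.26, 12.92, 12.41 and 13.66, which gave 0.75 with it (adjusted p = 0.194) and 0.95 (adjusted p = 0.0139) without it. Etfdh (1.11), Aldh3a2 (0.98), Slc27a2 (0.79) and Hsd17b4 (0.65) were the others. Tetrafluororethane, which shares these controls, had no called member either way. With the array left out, 0.022% of all genes rose and 0.011% fell after it.

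Across the highest doses the 4 indicator genes did not move as a block. Of all 46 groups Cyp4a14 was positive in 25, Cpt1a in 10, Pdk4 in 15 and Acot1 in 10. Among chemicals given in oil, Coumarin gave 0.20 for Cyp4a14, -0.36 for Cpt1a, -0.93 for Pdk4 and -0.91 for Acot1, and Benzene gave -0.25 for Cpt1a, 0.13 for Pdk4 and -1.24 for Acot1. 1,2-Dibromoethane lay between -0.53 and -0.20 for all 4, Iodoform had -0.49, -0.24, -1.11 and -0.58, and Trichlorofluoromethane had 0.30, 0.01, -0.59 and -0.42. In 2,3-Benzofuran mice Cyp4a14 (-0.94), Cpt1a (-0.39) and Acot1 were negative while Pdk4 was positive (1.46), and at 60 mg/kg of 1,2,3-Trichloropropane the 4 lay between -0.30 and 0.21. The 2 chemicals given in water lay between -0.33 and 0.51 for all 4.

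Among chemicals in the diet, Malathion had 0.04 for Cyp4a14 and 0.96 for Pdk4 beside its low Cpt1a and Acot1. 4-Nitroanthranilic acid had 0.75 for Cyp4a14, -0.19 for Cpt1a and 0.20 for Acot1, Diazinon 0.35, 0.20 and 0.47, and 2,2-Bis(bromomethyl)-1,3-propanediol -0.20, -0.45 and -0.52. The libraries labelled 1-Amino-2,4-dibromoanthraquinone were negative for all 4 genes, with -1.12 for Cyp4a14, -0.19 for Cpt1a, -1.48 for Pdk4 and -1.34 for Acot1, and those labelled Tris(2,3-dibromopropyl)phosphate likewise with -0.79, -0.18, -0.36 and -0.72. N-(1-naphthyl)ethylenediamine dihydrochloride had 0.76, 0.24, -0.48 and -0.53, 1,5-Naphthalenediamine 0.38, -0.30, -0.13 and -0.75, and Pentachloronitrobenzene -0.03 for Cpt1a, -0.75 for Pdk4 and -0.31 for Acot1. None of the values of the uncalled chemicals passed the test. Among inhaled chemicals at their highest concentration, Methylene Chloride had 0.81 for Cyp4a14 (adjusted p = 0.169), 0.09 for Cpt1a and -0.62 for Acot1. The other 6 inhaled chemicals lay between -0.51 (Pdk4, Propylene glycol mono-t-butyl ether) and 0.52 (Cyp4a14, Naphthalene).

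The receptor's own gene, Ppara, was called in 0 of 46 groups, with values from -0.74 (1,5-Naphthalenediamine) to 0.71 (2-Chloromethylpyridine hydrochloride) and a lowest unadjusted p of 0.009. Among 52 further genes of lipid metabolism that are not members, 27 calls were higher and 19 lower in 2392 tests (1.92%). Over all genes, 0.751% of the tests in treated groups were called. They were most frequent among the other Cyp4 fatty acid hydroxylases (7 higher and 7 lower in 230 tests, 6.09%) and among genes of uptake, lipid droplets and lipolysis (12 and 5 in 552 tests, 3.08%). All 7 higher calls of the Cyp4 list were of the single dim gene Cyp4a12a, several of them at doses of Methylene Chloride that share a control set. Further mitochondrial genes gave 1 call in 414 tests (0.242%), further peroxisomal genes 5 in 598 (0.836%) and the 2 genes of ketogenesis 1 in 92 (1.09%).

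Some of these genes had larger log2 changes than any member, but 2 of them were dim in the controls. Cyp4a12a, a hydroxylase that is higher in male than in female mouse liver, rose by 5.54 after 2,3-Benzofuran, by 3.81 after Coumarin, by 2.49 at 60 mg/kg of 1,2,3-Trichloropropane and by 3.25, 3.65, 1.94 and 2.29 from 500 to 4000 ppm of Methylene Chloride. Its control means in these comparisons ran from 4.66 to 6.32, where the median control level over all genes was 7.58. At such dim levels the size of a change depends on the added constant. The fatty acid translocase Cd36, a target of PPARgamma as well, rose after 4-Nitroanthranilic acid (3.07), 1,5-Naphthalenediamine (2.89), Malathion (2.64), 2,3-Benzofuran (1.66), Pentachloronitrobenzene (1.61) and Methylene Chloride at 4000 ppm (1.48). Pparg, also dim in its controls (means from 5.84 to 6.31), rose after 2,3-Benzofuran (2.87), 1,5-Naphthalenediamine (2.81) and Malathion (2.55). Lpl rose after Malathion (3.41) and 1,5-Naphthalenediamine (2.43). The droplet protein Plin5 fell after Malathion (-1.56), at 4000 ppm of Methylene Chloride (-0.87) and at 300 mg/kg of 1,4-Dichlorobenzene (-0.85), where G0s2 (-2.16), Fgf21 (-1.55), Crot (-0.85) and Plin2 (-0.72) fell with it. Abhd5, the activator of adipose triglyceride lipase, rose after Malathion (1.33) and at 500 and 600 mg/kg of 1,4-Dichlorobenzene (0.72 and 0.77). Nudt19 rose after Malathion (0.88), and Ppard fell at 4000 ppm of Methylene Chloride (-1.95). Among the other Cyp4 genes, Cyp4f14 fell after Malathion (-2.07), 2,3-Benzofuran (-0.65) and 1,5-Naphthalenediamine (-0.62). Cyp4f13 fell after Malathion (-0.795), Cyp4f15 after 2,3-Benzofuran (-0.60), and Cyp4a31 at 0.5 and 3 ppm of Naphthalene (-0.74 and -0.72).

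The 2 naphthylamines of run C, 1,5-Naphthalenediamine with 2 amino groups on the ring and N-(1-naphthyl)ethylenediamine dihydrochloride with an aminoethyl side chain on 1 ring nitrogen, were fed at the same concentration of 2000 ppm and compared directly, the only such pair. Of 33 members 1 differed, where 0.506% of all genes were higher and 0.418% lower after the diamine. Acot3 was at 11.07, 10.68 and 10.87 after 1,5-Naphthalenediamine and at 12.05, 12.15 and 12.68 after the other, with no overlap and a difference of -1.42 ± 0.27 (adjusted p = 0.0232, kept in 2 of 6 cases with 1 mouse left out). By unadjusted p under 0.05, 10 members differed, 4 positive and 6 negative (30.3% of members and 13.2% of all genes). The 95% interval of the difference, before any adjustment, was -1.12 to 0.35 for Cyp4a14, -0.86 to -0.21 for Cpt1a, -1.44 to 2.13 for Pdk4 and -0.89 to 0.44 for Acot1, and a missed threshold does not show that the compounds act alike on these genes.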

How the data were processed

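Liver RNA of 242 mice was hybridised to Mouse430_2 arrays, 1 mouse per array. The deposited values are linear probe set signals, that is hybridisation intensities, made with GCOS 1.0 per the submitters' processing notes. Their trimmed mean (2% off each end) was 500 on 240 arrays, and 2 arrays (replicate 4 of Vanadium Pentoxide, factor 3.37, and replicate 2 of 1,5-Naphthalenediamine, factor 5.91) were rescaled to it here. Such scaling makes each value relative to the rest of its array.

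Of 45101 probe sets, 34945 carried 1 gene symbol in the platform annotation, 932 several and 9160 none (64 control probe sets left out). Each of 18193 genes was read from its brightest probe set by mean signal. Values were log2(signal + 17.3), the constant being the 20th percentile of an array's signals, as a median of the 242 arrays. Each run was fitted with limma 3.58.1 in R 4.3.3 with 1 mean per group, and in run A with its 2 array codes as a block, so that run A differences are block-adjusted. P-values were two-sided and adjusted (Benjamini-Hochberg) over all genes. Called means an adjusted p under 0.05 and 1.5-fold or more. Trends are linear contrasts over equally spaced dose ranks. The procedures were tested on simulated data.

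Named were every called member, the member with the lowest p where none was called, and Cyp4a14, Cpt1a, Pdk4 and Acot1 at every highest dose. Only a part of the called pathway genes is named, with no fixed number per comparison. Acsl1, which the rule lists, was not analysed here. Members and lists were chosen with earlier results of these data known. Correlations with Cyp4a14 were permuted within control sets, and adjusted over all genes instead of over the members alone. Alternatives changed scaling, constant, filter, control set, probe set, block and arrays. Each array is 1 mouse of a group, and nothing says that mice were handled apart, so p-values measure the spread between these mice. The number of arrays limits precision. One control set, labelled as water but titled like oil (CCO3), entered only the control comparisons. Python 3.11.15 with numpy 2.4.6, pandas 2.3.3, scipy 1.17.1 and matplotlib 3.10.9 was used for the remaining steps.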

Additional observations from a re-analysis of the deposited data

Results flagged for a closer look

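Of 98 gene and group pairs of called members tested for a lone array, 4 had 1 mouse apart from its group by Dixon's criterion, which chance meets in about 1 of 20 groups. Acaa1a was 9.86 in replicate 4 of the air controls ACO1, against 11.42 to 11.56 in the others. Pdk4 was 10.18 in the same array, against 9.62 to 9.70. Both genes enter the oil and air comparison of run B, which is given above with and without that array. Acot2 was 8.91 in replicate 1 of the 300 mg/kg group of 1,4-Dichlorobenzene, against 9.54 to 9.58, and its call there was lost without that mouse (-0.62, adjusted p = 0.085). Cpt1a was 13.06 in replicate 5 of Malathion, against 12.19 to 12.35, and the call was kept without it.

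Acot3 differed between the 2 naphthylamines by -1.42 on the log2 scale, lower after 1,5-Naphthalenediamine in 3 of 3 mice, by limma's test of the difference itself.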

How the results depend on the processing

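No called member changed sign under an alternative run for it. Apart from these alternatives, other probe sets of the called members gave 31 values over all comparisons. Of these, 28 had the same sign and 9 were called the same way. Of the named members' values, 407 kept their side of the threshold and 95 lost it under changed settings, and 445 kept it and 117 lost it when 1 array was left out. Where a call was lost the cause was not tested, apart from alternatives that by construction leave fewer arrays or test other genes. With only the 2 groups compared in each fit, 1 of the 27 treated calls was made. That left 1 for Malathion and 0 for 2,3-Benzofuran, N-(1-naphthyl)ethylenediamine dihydrochloride, each dose of 1,4-Dichlorobenzene, 1,2,3-Trichloropropane at 6 and 40 mg/kg, Methylene Chloride at 3000 and 4000 ppm, Naphthalene at 0.5 and 3 ppm, and the difference between the naphthylamines. With the 2 arrays not rescaled, 16 treated calls were made, with 2 for Vanadium Pentoxide, 1 for Methylene Chloride at 3000 and at 4000 ppm, and 0 for 2,3-Benzofuran, N-(1-naphthyl)ethylenediamine dihydrochloride, 1,4-Dichlorobenzene at 100 mg/kg, 1,2,3-Trichloropropane at 6 and 40 mg/kg and Naphthalene at 3 ppm. Pooled control sets gave 0 for 1,2,3-Trichloropropane at 6 and 40 mg/kg and Naphthalene at 0.5 and 3 ppm, and 1 for Methylene Chloride at 2000 ppm. Quantile normalisation gave 0 for N-(1-naphthyl)ethylenediamine dihydrochloride and Naphthalene at 0.5 and 3 ppm and 1 for Methylene Chloride at 2000 ppm. A probe set mean gave 0 for 1,2,3-Trichloropropane at 40 mg/kg and Naphthalene at 3 ppm, as did a test of all probe sets, which also gave 0 for 2,3-Benzofuran. Malathion kept Cpt1a under 20 of 21 alternatives, all but that mean (adjusted p = 0.0515). The Gapdh ratio as a covariate gave 0 for N-(1-naphthyl)ethylenediamine dihydrochloride and for the difference. 1,5-Naphthalenediamine gained 1 call with that covariate, with the probe set mean, with the higher constant and without dim genes. Without dim genes 1,2,3-Trichloropropane at 40 mg/kg had 2, Methylene Chloride at 2000 ppm 1 and the 1,4-Dichlorobenzene trend 2, which it also had on a linear dose scale. Dosed groups alone gave trends of 0 members for 1,4-Dichlorobenzene and 1 each for 1,2,3-Trichloropropane and Methylene Chloride. Control arrays alone gave 13 of 26 vehicle calls and 0 for chow minus air in run B. Correlated members numbered 12 and 12 with other constants and 13 under quantile normalisation.

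With 1 array left out, the counts ran from 3 to 7 at 300 mg/kg of 1,4-Dichlorobenzene, 0 to 1 at 100, 1 to 1 at 400, 1 to 2 at 500 and 0 to 4 at 600 mg/kg. They ran from 1 to 3 for Malathion, 0 to 1 for 2,3-Benzofuran, N-(1-naphthyl)ethylenediamine dihydrochloride, the difference, 1,2,3-Trichloropropane at 6 mg/kg and Naphthalene at 0.5 and 3 ppm, and 0 to 2 for 1,2,3-Trichloropropane at 40 mg/kg. They ran from 1 to 2 and 0 to 3 for Methylene Chloride at 3000 and 4000 ppm, 0 to 2 and 2 to 2 for the trends of 1,4-Dichlorobenzene and Methylene Chloride, and 8 to 16 and 3 to 7 for oil minus air in runs B and D. Without replicate 4 of the air set of run B, Tetrafluoroethylene had 6, Tetrafluororethane 0 and chow minus air 15. The leave-outs for the vehicle contrasts, the trends and that air array were chosen after seeing the data. No paired analysis was possible because the labels carry animal numbers and no replicate numbers shared between groups.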
